A study of Mus musculus with 16 samples.

Results

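The non-classical MHC class I genes H2-Q4, H2-Q6, H2-Q7, H2-T22 and H2-T23 were followed across 16 RNA-seq libraries of endothelial cells from the mouse cerebral cortex. These 5 genes, of 52636 gene IDs in the count table, were chosen by the measured levels of H2-Q6 and H2-Q7, which differed sharply between single wild-type libraries, and were found by symbol. The levels of H2-Q6, H2-Q7 and their sum in wild-type mice are therefore a description and carry no test. All 5 genes passed the filter on low counts, H2-Q6 and H2-Q7 largely through the P50 libraries, where they were higher, and 15368 genes were left to be tested.

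The mice were hemizygous 16p11.2 df/+ animals, which lack 1 copy of the mouse counterpart of human 16p11.2, and their WT littermates, at postnatal day 14 (P14) or postnatal day 50 (P50). All came from crosses on a mixed B6/129 background, and sex was not given in the sources used here. Deletion of the interval was constitutive, so it was present in every cell type and not only in endothelium. Cells positive for the endothelial surface protein CD31 were selected with magnetic beads after depletion of myelin and of CD45-positive blood and immune cells. Each library pooled the cells of 2 mice, and each of the 4 groups held 4 libraries. The p-values rest on the spread between such pools.

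Total counts per library were 15611059 to 18737781 in the P50 df/+ group, 14303921 to 17639603 in the P50 WT group, 8658792 to 18063589 in the P14 df/+ group and 12484207 to 17178787 in the P14 WT group. As a check of the labels, the median log2 ratio of 12 genes of the deleted interval to the mean of WT libraries of the same age was -1.16 to -1.06 in P14 df/+ and -1.33 to -0.42 in P50 df/+. WT libraries lay between -0.30 (replicate 1) and 0.20 (replicate 4) in P50 WT, and between -0.20 and 0.07 in P14 WT. In P50 df/+ the value of replicate 2 was -0.42, against -1.33 to -0.94 in the other 3. It lay nearer to replicate 1 of P50 WT than to its own group, so the check does not settle its label. In both libraries 11 of the 12 genes were below the WT mean. Replicate 2 of P50 df/+ also had the lowest share of uniquely mapped reads of all libraries (85.6%). Its erythrocyte marker sum was the highest of its group (5784 CPM, against 987 to 3692 CPM in the other 3). Replicate 1 of the WT mice at P14 had the highest oligodendrocyte marker sum of its group (8973 CPM, against 954 to 1808 CPM). All 15 endothelial markers examined were detected in every library. Marker RNA of pericytes, oligodendrocytes and perivascular macrophages was also present. In bulk RNA a lower level per cell and fewer expressing cells cannot be told apart. Sample numbers in the labels were 2 to 6 for P50 df/+ and 13 to 16 for P50 WT. They were 9 to 12 for P14 df/+ and 1 to 8 for P14 WT. At each age the range of numbers cannot be told apart from genotype. Within each genotype it cannot be told apart from age.

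MHC class I molecules are cell-surface proteins in which a heavy chain pairs with beta-2-microglobulin and holds a peptide for inspection by lymphocytes. The classical heavy chains H2-K1 and H2-D1 present many peptides to CD8 T cells, whereas the non-classical chains vary less between individuals and have more specialised partners. H2-Q6 and H2-Q7 belong to the group of near-identical genes that encode the Qa-2 antigen, H2-Q4 encodes the antigen Qb-1, H2-T23 encodes Qa-1, a ligand of the CD94/NKG2 receptors of natural killer cells, and H2-T22 encodes a ligand of a subset of gamma-delta T cells. Class I genes are induced by interferons and by the transactivator Nlrc5.

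All 5 genes lie in the MHC on chromosome 17 and are protein-coding in the GENCODE M21 annotation (GRCm38). H2-Q4 spans chr17:35379617-35385290, H2-Q6 chr17:35424850-35430055 and H2-Q7 chr17:35439155-35443773, all on the plus strand. H2-T23 spans chr17:36029773-36032855 and H2-T22 chr17:36037128-36042747, both on the minus strand. H2-Q4 overlaps the antisense gene Gm11131, which held 870 reads beside 26894 of H2-Q4. H2-T22 and H2-T23 overlap the antisense gene A930015D03Rik, which held 8 reads. How strand was treated in counting was not given in the sources used here, so reads of such pairs are uncertain.

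The 250 bases before the RefSeq start (GRCm38.p6) are shown for H2-Q6, H2-Q7, H2-Q4 and H2-T22, to show how alike the copies are. The RefSeq window of H2-T23 overlaps its GENCODE transcript and is neither shown nor aligned here. Other windows share this fault: that of H2-D1 lies inside its GENCODE gene, and that of H2-T22 reaches a few bases into its gene. Capitals mark AGTTTCACTT, the longest run of letters that the windows of H2-Q4, H2-Q6, H2-Q7, H2-T22, H2-K1 and H2-D1 have in common, which lies in the interferon consensus sequence known from class I promoters. The H2-T23 window does not hold this run. H2-Q6 is chr17:35424600-35424849 on the plus strand, H2-Q7 is chr17:35438905-35439154 on the plus strand, H2-Q4 is chr17:35379367-35379616 on the plus strand and H2-T22 is chr17:36042743-36042992 on the minus strand.
H2-Q6: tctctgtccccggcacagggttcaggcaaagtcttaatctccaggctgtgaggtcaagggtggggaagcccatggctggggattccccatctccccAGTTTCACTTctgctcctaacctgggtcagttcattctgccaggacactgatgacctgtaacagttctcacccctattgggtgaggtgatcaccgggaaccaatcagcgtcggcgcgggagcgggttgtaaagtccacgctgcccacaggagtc
H2-Q7: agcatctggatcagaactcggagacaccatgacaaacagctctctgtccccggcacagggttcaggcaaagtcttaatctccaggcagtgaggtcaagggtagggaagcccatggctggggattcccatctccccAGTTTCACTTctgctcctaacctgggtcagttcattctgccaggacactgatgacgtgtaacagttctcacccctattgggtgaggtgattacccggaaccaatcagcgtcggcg
H2-Q4: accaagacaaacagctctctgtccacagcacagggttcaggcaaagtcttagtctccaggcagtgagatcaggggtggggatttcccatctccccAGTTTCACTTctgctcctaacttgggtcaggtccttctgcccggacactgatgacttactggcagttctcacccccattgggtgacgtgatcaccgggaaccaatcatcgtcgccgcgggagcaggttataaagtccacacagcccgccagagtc
H2-T22: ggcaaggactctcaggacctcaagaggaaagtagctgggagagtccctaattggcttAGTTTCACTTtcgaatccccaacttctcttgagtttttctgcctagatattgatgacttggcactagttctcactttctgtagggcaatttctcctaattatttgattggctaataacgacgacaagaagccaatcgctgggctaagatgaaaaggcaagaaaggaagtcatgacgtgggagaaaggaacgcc

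The H2-Q6 and H2-Q7 windows aligned over 210 bases, of which 205 were identical, with 5 mismatches and 1 gap position (97.6% identity). H2-Q4 was identical to H2-Q6 at 90.5% of aligned bases, and H2-T22 at 77.9%. AGTTTCACTT, which was chosen because these 6 windows share it, lies on the plus strand of each gene and was found in 0.128% of 32851 promoter windows of the same length searched on both strands. It began 154 bases before the start in H2-Q6, 115 in H2-Q7, 155 in H2-Q4 and 193 in H2-T22. These matches describe letters in a window and are no evidence of binding.

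H2-Q6 and H2-Q7 were nearly silent in most P14 libraries and ranged most widely among the 5 genes. In P14 WT, H2-Q6 measured 0.238, 0.760, 9.36 and 1.07 CPM (counts per megaread on TMM-scaled library sizes) in replicates 1 to 4, and H2-Q7 measured 0.158, 0.409, 8.33 and 0.714 CPM. In P14 df/+, H2-Q6 measured 0.272, 0.110, 0.697 and 0.343 CPM, and H2-Q7 measured 0.163, 0.220, 0.349 and 0.206 CPM. Replicate 3 of P14 WT stood above the other 7 P14 libraries for both genes. The remaining P14 libraries held 1 to 15 reads of H2-Q6 and 2 to 10 reads of H2-Q7, so their differences lie within a few reads.

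At P50, WT libraries measured 5.61, 248, 20.4 and 14.0 CPM of H2-Q6 and 2.40, 164, 16.1 and 12.02 CPM of H2-Q7. The df/+ libraries measured 17.3, 1.61, 9.07 and 5.33 CPM of H2-Q6 and 11.1, 3.22, 5.64 and 4.41 CPM of H2-Q7. Replicate 2 of P50 WT was far above all other libraries. The other 3 WT libraries and the 4 df/+ libraries overlapped.

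Because near-identical copies can exchange reads, H2-Q6 and H2-Q7 were also summed. The sum was 0.396, 1.17, 17.7 and 1.79 CPM in P14 WT, 0.434, 0.330, 1.05 and 0.549 CPM in P14 df/+, 8.01, 412, 36.5 and 26.0 CPM in P50 WT and 28.4, 4.83, 14.7 and 9.74 CPM in P50 df/+. Group means were 5.26 ± 8.30, 0.590 ± 0.317, 121 ± 195 and 14.4 ± 10.14 CPM in that order (SD, n = 4). Replicate 3 of P14 WT was 15.8 times the mean of the other 3 libraries of its group, and replicate 2 of P50 WT was 17.6 times the mean of its other 3. Replicate 2 of P50 WT held 6230 of the 8698 reads of both genes, or 71.6%. Replicate 3 held 83.7% of the P14 WT reads. Without these libraries the group means were 1.12 CPM in P14 WT and 23.5 CPM in P50 WT.

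**Figure D1:**
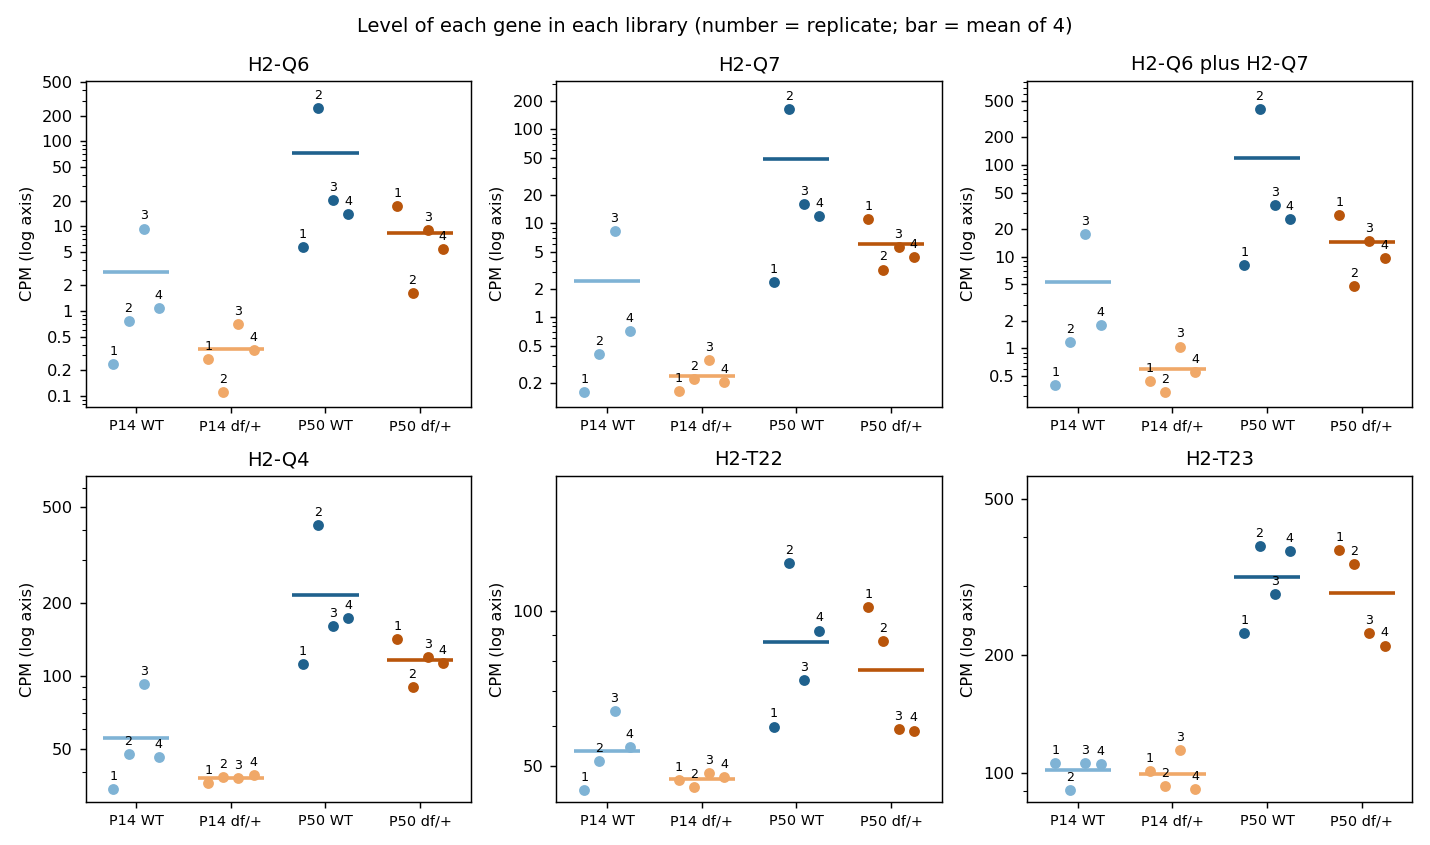
Level of each of the 5 genes and of H2-Q6 plus H2-Q7 in CPM on a log axis, by group; points are single libraries with their replicate number, and bars are means of 4. Replicate 2 of P50 WT reaches 412 CPM for the sum, against 4.83 to 36.5 CPM in the other P50 libraries.

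The balance between the copies moved far less than their sum. H2-Q7 made up 40.8% of the reads of both genes over all libraries (95% exact binomial interval 39.7 to 41.8, 8698 reads). In replicate 2 of P50 WT its share was 39.9% (38.7 to 41.1), and in replicate 3 of P14 WT it was 47.1% (40.8 to 53.4, 257 reads). Since P50 WT replicate 2 held most of these reads, the share was also pooled without it, at 43.0% (41.0 to 45.0, 2468 reads), which lies above its interval. The interval held the pooled share of the other 15 libraries in 11 of 16. Of the other 5, replicate 1 of P50 WT was low at 29.9% (22.1 to 38.7, 127 reads) and replicate 2 of P50 df/+ was high at 66.7% (54.3 to 77.6, 69 reads). Without molecular identifiers, such intervals hold counting error alone. Of the 75-base windows of H2-Q6 transcripts, 17.9% also occur in another gene and 9.80% occur in H2-Q7. Of the H2-Q7 windows, 16.96% occur in another gene and 4.21% in H2-Q6. Reads from such windows cannot be assigned to 1 copy, and 5.31% to 9.05% of input reads per library mapped to several places.

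**Figure D2:**
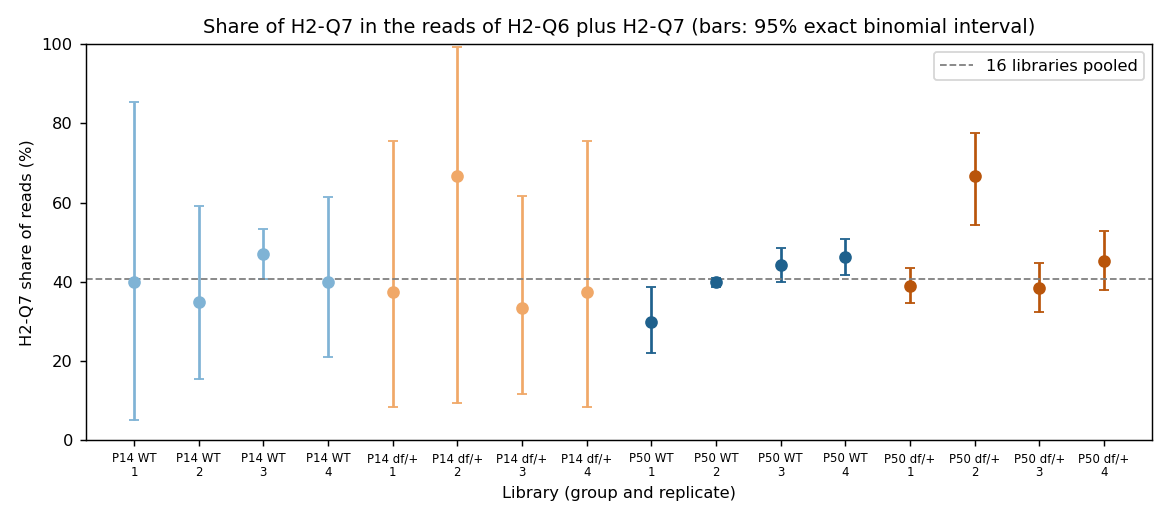
Share of H2-Q7 in the reads of H2-Q6 plus H2-Q7, in percent, for each library, with 95% exact binomial intervals; the dashed line is the pooled share of 40.8%. Intervals are wide at P14, where most libraries held few reads, and replicate 2 of P50 df/+ lies highest of the P50 libraries at 66.7%.

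H2-Q4 followed the same libraries at a smaller scale. It measured 34.1, 47.5, 92.8 and 46.1 CPM in P14 WT and 36.0, 38.0, 37.7 and 38.9 CPM in P14 df/+. At P50 it measured 111, 421, 161 and 174 CPM in WT and 142, 89.8, 120 and 113 CPM in df/+. The highest library was again replicate 3 in P14 WT and replicate 2 in P50 WT, the latter at 2.84 times the mean of the other 3. Group means were 55.1 ± 25.8, 37.6 ± 1.21, 217 ± 139 and 116 ± 21.5 CPM (P14 WT, P14 df/+, P50 WT, P50 df/+; SD, n = 4). The ages did not overlap within either genotype.

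H2-T22 measured 44.9, 51.2, 63.9 and 54.4 CPM in P14 WT and 47.1, 45.7, 48.5 and 47.7 CPM in P14 df/+. At P50 it measured 59.8, 124, 73.5 and 91.8 CPM in WT and 102, 87.5, 59.1 and 58.7 CPM in df/+. Replicate 2 of P50 WT was 1.66 times the mean of the other 3. The ages overlapped in WT, where replicate 3 at P14 exceeded replicate 1 at P50, and did not overlap in df/+. H2-T22 shares 15.7% of its 75-base windows with H2-T10, so its level is uncertain to that extent.

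H2-T23 varied least of the 5 genes between P14 WT replicates, but not between P14 df/+ replicates. Its lowest, median and highest levels were 90.7, 106 and 106 CPM in P14 WT and 90.9, 96.7 and 114 CPM in P14 df/+. At P50 it measured 228, 381, 286 and 370 CPM in WT and 371, 341, 228 and 212 CPM in df/+. Every P50 library exceeded every P14 library. Replicate 2 of P50 WT was 1.29 times the mean of the other 3, and replicate 3 of P14 WT did not stand out. Within 4 libraries, the coefficient of variation of H2-T23 was 7.42% in P14 WT, against a median of 13.4% over all tested genes and 152% for H2-Q6. In P14 df/+ it was 10.8%, against 3.22% for H2-Q4 and 2.504% for H2-T22.

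For all 5 genes and the sum, group means ran in the order P50 WT, P50 df/+, P14 WT, P14 df/+ from highest to lowest. This order is a description, since WT levels of H2-Q6 and H2-Q7 chose the genes and single WT libraries weigh on it. Without replicate 2 of P50 WT, the fitted log2 value of df/+ against WT at P50 was 0.036 for H2-T22. The neighbours P50 df/+ and P14 WT overlapped for H2-Q4, H2-T22 and the sum and were separate for H2-T23. The neighbours of the same age overlapped for every gene.

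The comparison of genotypes asks whether the deletion changes these genes. The 3 genes open to this test, H2-Q4, H2-T22 and H2-T23, did not pass it at either age. At P14, where 0.0651% of all tested genes were called, the log2 fold changes of df/+ against WT were -0.55 for H2-Q4 (SE 0.353), -0.18 for H2-T22 (SE 0.216) and -0.03 for H2-T23 (SE 0.192), each with an adjusted p of 1.00 (edgeR quasi-likelihood test, Benjamini-Hochberg adjustment over 15368 genes). At P50, where 0.0586% were called (0.00651% higher and 0.0521% lower in df/+), they were -0.90 (SE 0.351), -0.19 (SE 0.214) and -0.14 (SE 0.191), again with adjusted p of 1.00. The unadjusted p of H2-Q4 at P50 was 0.0212, and it was the only 1 of these 6 values under 0.05. Without replicate 2 of P50 WT the H2-Q4 value was -0.35. Exact two-sided permutation tests of log2 CPM, whose smallest possible p is 0.0286, gave 0.143 and 0.114 for H2-Q4, 0.171 and 0.514 for H2-T22 and 0.743 and 0.571 for H2-T23 at P14 and P50, and none of these 6 passed. DESeq2 called 0 of the 3 genes at either age too.

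The change of the genotype difference between ages did not pass either: it was -0.35 (SE 0.496) for H2-Q4, -0.0029 (SE 0.305) for H2-T22 and -0.10 (SE 0.270) for H2-T23. That comparison called 0% of all tested genes, with 305 of 15368 at an unadjusted p under 0.05 by edgeR and 0 called by DESeq2.

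For H2-Q6 and H2-Q7 the genotype values describe the 2 high WT libraries as much as the groups. The fitted log2 value of the sum was -3.11 at P14 and -0.90 without replicate 3 of P14 WT. At P50 it was -3.06 and -0.70 without replicate 2 of P50 WT. With the same omissions, H2-Q6 alone was -2.93 and then -0.91 at P14, and -3.10 and then -0.67 at P50. H2-Q7 alone was -3.33 and then -0.88 at P14, and -3.00 and then -0.74 at P50. No p is given for these, since WT levels chose the genes.

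**Figure D3:**
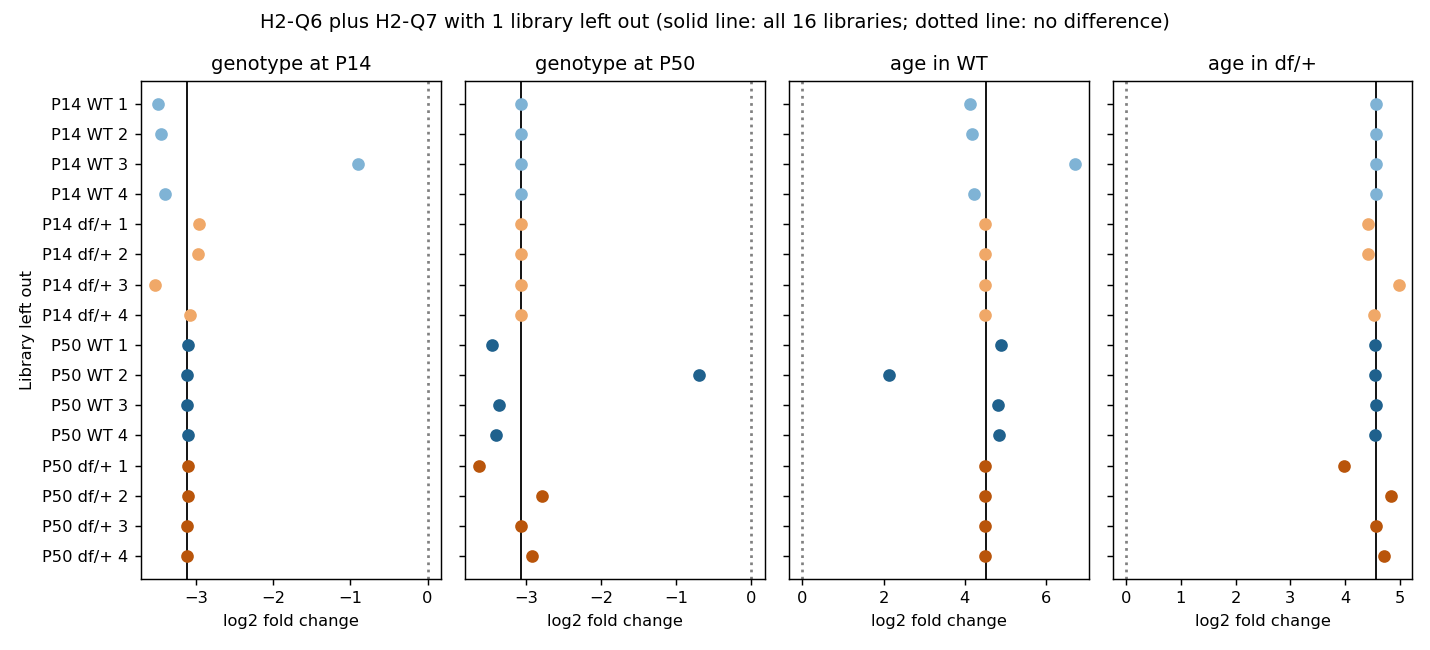
Log2 fold change of H2-Q6 plus H2-Q7 (x axes) with each library left out in turn (rows), for genotype (df/+ against WT) at each age and age (P50 against P14) in each genotype; the solid line is the value with all 16 libraries. Leaving out replicate 3 of P14 WT or replicate 2 of P50 WT moves the values that use them to -0.90, -0.70, 6.72 and 2.14. Values that use WT libraries are a description, since WT levels chose the genes.

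The genes rose from P14 to P50 wherever they could be tested. In df/+ mice, whose libraries did not choose the genes, H2-Q4, H2-T22 and H2-T23 all rose. Of all tested genes, 16.7% were called higher and 12.7% lower (29.4% in either direction). H2-Q4 rose 3.09-fold (log2 fold change 1.63, SE 0.359, adjusted p = 0.00357), H2-T22 1.63-fold (0.70, SE 0.216, adjusted p = 0.0240) and H2-T23 2.89-fold (1.53, SE 0.195, adjusted p = 4.20e-05). H2-Q6 rose by a log2 value of 4.47 (SE 1.46, adjusted p = 0.0311), H2-Q7 by 4.67 (SE 1.497, adjusted p = 0.0287) and the sum by 4.57 (SE 1.41, adjusted p = 0.0241). These were not read against the share of all genes, since P14 df/+ held only 21 reads of H2-Q6 and 13 of H2-Q7 and the filter was passed through the higher age. With no filter the adjusted p by the same edgeR test was 0.0219 for H2-Q6, 0.0199 for H2-Q7 and 0.0152 for the sum. The spread in these fits comes from all 16 libraries, so the WT libraries that chose the genes take part in the p-values. Every P50 df/+ library exceeded every P14 df/+ library for all 5 genes and the sum, with an exact two-sided permutation p of 0.0286 each, the smallest possible, and 0.0536 after adjustment over 15 such tests. The share of all tested genes that separate fully in this way was not computed. With 29.4% of them called by edgeR, the separation is not read as particular to these genes.

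The calls of H2-Q4 and H2-T23 in df/+ were kept in all 16 omissions of 1 library. That of H2-Q6 was lost without replicate 1, 2, 3 or 4 of P14 df/+ (adjusted p = 0.0783, 0.0747, 0.0572 and 0.0757) or replicate 1 of P50 df/+ (0.0820), and that of H2-Q7 without the same libraries (0.0746, 0.0650, 0.0607, 0.0716 and 0.0680). That of the sum was lost without replicate 1, 2 or 4 of P14 df/+ (0.0640, 0.0614 and 0.0623) or replicate 1 of P50 df/+ (0.0612). That of H2-T22 was lost without the same 4 libraries (0.0527, 0.0599, 0.0539 and 0.0936) or replicate 2 of P50 df/+ (0.0595). Over all omissions the log2 value of the sum stayed between 3.99 and 4.98. With replicate 2 of P50 df/+ and replicate 1 of the P14 WT group both left out, the sum had a log2 value of 4.83 (adjusted p = 0.0244) and 4 of the 5 genes kept the call, all but H2-T22.

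In WT mice 3 of the 3 tested genes rose with age, beside 13.1% of all tested genes called higher and 12.1% called lower (25.1% in either direction). H2-Q4 rose 3.93-fold (log2 fold change 1.97, SE 0.362, adjusted p = 8.43e-04) and H2-T23 3.10-fold (1.63, SE 0.196, adjusted p = 1.91e-05), and both kept the call in all 16 omissions. H2-T22 rose 1.63-fold (0.70, SE 0.216, adjusted p = 0.0253). It lost the call without P14 WT replicate 1, 2 or 4 (adjusted p = 0.0718, 0.0668 and 0.0561), replicate 2 of P50 WT (0.125) or replicate 4 of P50 WT (0.0641), and its exact two-sided permutation p was 0.0571. The sum had a fitted log2 value of 4.52, which was 2.14 without replicate 2 of P50 WT and 6.72 without replicate 3 of P14 WT. An edgeR fit that added the range of the sample number to age and genotype gave an age difference of 1.80 for H2-Q4 (adjusted p = 4.08e-05), 0.70 for H2-T22 (0.00163), 1.58 for H2-T23 (2.89e-07) and 4.54 for the sum, in which WT libraries take part and for which no p is given. P14 WT and P50 df/+ hold the low numbers, so this range equals the change of the genotype difference between ages. The fit therefore repeats the fit of the group means. Its age values average both genotypes and are not corrected for the sample number.

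The 2 high WT libraries were also high for the classical class I genes. They differed less from their groups over the lists of interferon response genes and of peptide supply and loading genes. In P14 WT replicate 3 and P50 WT replicate 2, respectively, log2 CPM exceeded the mean of the other 3 libraries of the group by 4.03 and 4.38 for the sum, 1.14 and 1.53 for H2-Q4, 1.56 and 1.44 for H2-K1, 0.84 and 1.02 for H2-D1 and 0.89 and 1.06 for beta-2-microglobulin (B2m). The pseudogene-annotated H2-Q5, which shares 16.4% of its 75-base windows with H2-Q7, was higher by 3.67 and 3.38, and Nlrc5 by 3.17 and 1.80. Tap1, a subunit of the peptide transporter, was higher by 0.91 and 1.13, and the immunoproteasome subunit Psmb9 by 1.07 and 1.07. The transporter subunit Tap2 differed by 0.04 and 0.48, and the loading factor Tapbp by 0.09 and 0.38. Over the 14 genes for peptide supply and loading the median difference was 0.12 and 0.26, with 10 and 12 of them higher. H2-T24 differed by 0.03 and -0.30, and the endothelial gene Pecam1 by 0.03 and -0.07. The median difference over the 33 tested interferon response genes was 0.29 and 0.16, with 24 and 25 of them higher. The differences ran from -0.25 (Cxcl10) to 1.06 (Iigp1) in P14 WT replicate 3 and from -0.48 (Ifit1) to 1.24 (Igtp) in P50 WT replicate 2, with Gbp4 at 0.86 and 1.19.

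**Figure D4:**
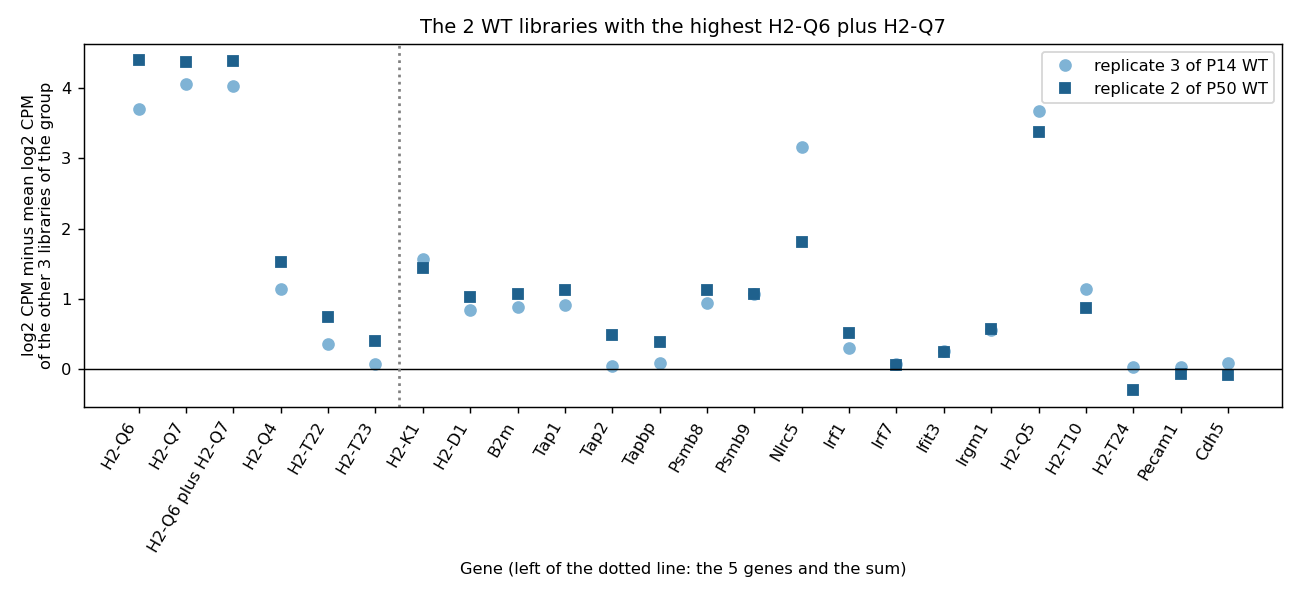
Log2 CPM in P14 WT replicate 3 (circles) and P50 WT replicate 2 (squares) minus the mean log2 CPM of the other 3 libraries of the same group, for the 5 genes, the sum of H2-Q6 and H2-Q7, and further genes chosen with their values known. H2-Q6, H2-Q7, H2-Q5 and Nlrc5 lie highest, and Irf7, Pecam1 and Cdh5 lie near 0. Ifit3 lies at 0.26 and 0.24 and H2-T24 at 0.03 and -0.30. Tap2 lies at 0.04 and 0.48 and Tapbp at 0.09 and 0.38 (P14 WT replicate 3 and P50 WT replicate 2).

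Markers of lymphocytes were low in the same libraries, while MHC class II and shared leukocyte markers were highest of the P50 libraries in replicate 2 of P50 WT. The 12 T and natural killer cell markers summed at P50 to 1.58 to 3.86 CPM for WT and 1.05 to 3.67 CPM for df/+, and at P14 to 1.17 to 1.57 CPM for WT and 1.10 to 2.34 CPM for df/+, with Klrd1 at 0 in all 16 libraries and 11 of 12 detected in at least 1. They summed to 1.31 CPM in replicate 3 of P14 WT, where Cd3e, Cd8b1, Prf1 and Gzma were also at 0, and to 2.65 CPM in replicate 2 of P50 WT, where Cd3d, Cd8a and Nkg7 were at 0. The 6 B cell markers summed to 5.92 and 8.54 CPM in these 2 libraries, against 3.84 to 20.7 over all, and the 4 markers shared by leukocytes to 22.99 and 26.1 CPM. The other P50 libraries lay at 12.6 to 21.2 CPM for the leukocyte markers, and the P14 libraries at 21.4 to 35.8 CPM. The 5 erythrocyte markers summed to 987 and 1890 CPM in the same libraries, within the group ranges of 978 to 1607 CPM for P14 WT and 804 to 2971 CPM for P50 WT. The 10 MHC class II genes summed to 65.7 CPM in replicate 2 of P50 WT, the highest of all libraries (14.5 to 65.7 in P50 WT, 11.9 to 30.1 in P50 df/+), and to 15.5 CPM in P14 WT replicate 3 (group ranges at P14 were 11.8 to 18.9 CPM for WT and 9.62 to 14.5 CPM for df/+). All 8 tested class II genes were higher in replicate 2 of P50 WT than the mean of the other 3, with a median difference in log2 CPM of 1.45. The part of class II-positive cells in these results was not tested.

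The genes most like the sum were sought by the Pearson correlation, over 16 libraries, of each gene's deviation from its group mean in log2 CPM with that of the sum. The points share library and depth, and the correlations are a description. The 10 highest were H2-D1 (r = 0.947), Tap1 (0.932), H2-K1 (0.914), B2m (0.893), Psmb9 (0.836), H2-Q5 (0.832), Nlrc5 (0.827), the interferon-induced GTPase Irgm1 (0.826), Gm11992 (0.807) and Trim62 (0.807). H2-D1, Tap1, H2-K1 and B2m stayed among the 10 in all 16 omissions of 1 library. Without replicate 2 of P50 WT and replicate 3 of P14 WT together, the r of H2-D1 was 0.809, of Tap1 0.732, of H2-K1 0.615 and of B2m 0.647 over 14 libraries, so part of the likeness rests on those 2 libraries. Of the 50 genes most like the sum, 9 lie on chromosome 17, which holds 4.70% of tested genes. With Spearman correlation 4 of the 50 lay there, and 4 of the 10 named genes stayed among the 10. On that chromosome, H2-Q5, H2-D1 and H2-K1 share some 75-base windows with H2-Q6 and H2-Q7.

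Among the 5 genes the sum was followed by H2-Q4 (r = 0.970) and H2-T22 (0.700) and less by H2-T23 (0.415). H2-T22 and H2-T23 correlated with each other at 0.869. H2-T24, the neighbouring gene, had r = -0.07 with the sum. The genes most like H2-Q4 were H2-D1, Tap1 and H2-K1. Those most like H2-T22 were Psmb8 (0.949), Rcn1 and Gm13056, and those like H2-T23 included Fam57b (0.934) and Ly6e (0.922).

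The rise with age was shared by most of the listed genes that build and load class I molecules. As background, 13.1% of all tested genes were called higher and 12.1% lower in WT, and 16.7% and 12.7% in df/+. The classical list rose in 3 of 3 genes in both genotypes: H2-K1 by log2 values of 2.13 in WT and 2.25 in df/+, H2-D1 by 1.43 and 1.35 and B2m by 1.49 and 1.42. Of 14 genes for peptide supply and loading, 9 rose and 1 fell in each genotype, with medians of 1.09 and 1.19 against 0.03 and 0.03 over all tested genes. Those that rose were the transporter subunits Tap1 (1.10 and 1.29) and Tap2 (1.60 and 1.70), the loading factors Tapbp (1.35 and 1.41) and Tapbpl (1.13 and 1.00), the immunoproteasome subunits Psmb8 (2.54 and 3.03), Psmb9 (2.35 and 2.37) and Psmb10 (1.56 and 1.92) and the proteasome activators Psme1 (1.00 and 1.10) and Psme2 (1.07 and 1.30). Pdia3, a chaperone of the loading complex, fell by 0.52 and 0.52. Erap1, Calr, Canx and Hspa5 did not pass the test.

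Of 10 tested class I-like genes outside the 5, 5 rose and 2 fell in each genotype (medians 0.46 and 0.42, against 0.03 and 0.03 over all tested genes). The share of all tested genes called was 13.1% higher and 12.1% lower in WT, and 16.7% and 12.7% in df/+. H2-T24 rose by 2.04 in WT and 2.39 in df/+, H2-T10 by 1.75 and 1.93, H2-M3 by 0.75 and 0.65 and the neonatal Fc receptor chain Fcgrt by 0.71 and 0.90. H2-Q5 had values of 3.56 and 4.30 and passed the filter largely through P50. In df/+ it measured 0.0543 to 0.139 CPM at P14, and 0 CPM in replicate 2 of P50. In WT it was highest in the 2 high libraries, P14 WT replicate 3 (3.44 CPM) and P50 WT replicate 2 (35.8 CPM). The lipid-presenting Cd1d1 fell by 3.23 and 2.39. Cd1d2 fell too, with 0.0792 to 1.93 CPM in P14 WT and 0 in all 4 P50 WT libraries, and 0.558 to 2.40 against 0 to 0.269 CPM in df/+. The count of 5 dropped to 2 in WT without P14 WT replicate 1 or 2 or P50 WT replicate 2, and without replicate 2 of P14 df/+ in df/+. It was 3 in WT without replicate 4 of either age, and without replicate 1, 3 or 4 of P14 df/+ or replicate 1 or 2 of P50 df/+ in df/+. Other H2-Q and H2-T symbols of the table were H2-T-ps with 54 reads, H2-Q10 with 42, H2-Q2 with 24 and H2-Q1 with 7 over all libraries, and H2-Q3 and H2-T3 with 0.

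Of 22 regulators of class I genes, 6 rose and 0 fell in each genotype (medians 0.21 and 0.21, against 0.03 and 0.03 over all tested genes), beside 13.1% of all tested genes called higher in WT and 16.7% in df/+. They included Nlrc5 (2.79 in WT and 2.99 in df/+), Irf1 (1.54 and 1.45), Irf7 (2.07 and 2.33), Irf9 (0.71 and 0.96) and Stat2 (1.10 and 1.11), all factors of interferon signalling or its targets. Nlrc5 measured 0.979 CPM in replicate 2 of P50 df/+, against 8.95 to 12.2 CPM in the other 3 libraries of that group. Members of the RFX, NF-Y and NF-kappa-B families did not pass the test, with log2 values of -0.37 to 0.51.

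Of 33 tested interferon response genes, 30 rose in WT and 29 in df/+, and 0 fell (medians 1.70 and 1.94). The share of all tested genes called higher was 13.1% in WT and 16.7% in df/+. The largest values were those of Ifit3 (4.33 and 4.73), Ifit3b (4.28 and 4.88), Oas2 (4.12 and 3.22), Zbp1 (3.91 and 3.35), Rsad2 (3.30 and 3.45), Ifit1 (3.16 and 3.49) and Iigp1 (3.07 and 3.30), followed by Gbp6, Isg15, Gbp4, Oas1a and Oasl2 at 1.87 to 2.77. The others that rose in both genotypes were Igtp, Mx2, Ifitm3, Ifi27, Gbp2, Parp14, Bst2, Ifit2, Dhx58, Rtp4, Xaf1, Ifi35, Isg20, Ifi44, Irgm1, Ifih1 and Gbp3, between 0.71 and 2.34. Gbp9 passed in WT alone (1.03 and 0.90, adjusted p = 0.0435 and 0.0689), and the difference of that age change between genotypes did not pass its own test (-0.14, SE 0.497, adjusted p = 1.00). Ddx58, Gbp7 and Cxcl10 did not pass. Over the omissions of 1 library the count was 27 to 31 in WT and 27 to 30 in df/+.

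Of 11 genes for interferon receptors and feedback, 2 rose and 2 fell in WT and 3 rose and 3 fell in df/+, beside 13.1% higher and 12.1% lower of all tested genes in WT and 16.7% and 12.7% in df/+ (medians 0.08 and 0.12). These few calls are not set apart from that background. The feedback gene Usp18 rose by 1.80 and 2.43 and Socs3 by 1.42 and 1.05, Socs1 passed in df/+ (1.47), the receptor chain Ifngr2 fell by 1.20 and 1.21, Jak2 fell by 0.79 and 0.77 and Ifnar1 passed in df/+ with a log2 value of -0.45. The count higher in WT was 4 without replicate 2 of P50 df/+, and that in df/+ was 1 without that library or replicate 4 of P14 df/+. The count lower was 1 in WT without P14 WT replicate 1, 2 or 3 or P50 WT replicate 2 or 4, and 1 in df/+ without replicate 1, 3 or 4 of P14 df/+ or replicate 2 of P50 df/+.

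Of 8 tested MHC class II genes, 2 rose in each genotype, near the background of 13.1% and 16.7% of all tested genes called higher: H2-Aa (1.71 and 1.80) in both, Cd74 in WT (1.65) and H2-DMb1 in df/+ (2.73). With the replicate number as a block 0 passed in either. In WT 0 passed without P14 WT replicate 1, 2 or 3 or P50 WT replicate 2 or 4 and 1 without replicate 4 of P14 WT. In df/+ 0 passed without replicate 2, 3 or 4 of P14 df/+ or replicate 1 or 2 of P50 df/+ and 1 without replicate 1 of P14 df/+. None of 13 genes of T and natural killer cell receptors, co-receptors and leukocyte inhibitory receptors was abundant enough to be tested, with a summed level of 0.630 to 2.79 CPM per library and Klrd1 at 0 in all. Between genotypes 0 genes of these lists were called at either age. Of the 33 interferon response genes, 26 were lower in df/+ at P14 and 21 at P50, with medians of -0.25 and -0.11 against -0.02 and 0.02 over all tested genes. Of all 15368 tested genes, 8358 were lower at P14 and 7219 at P50. In P14 WT replicate 3 and P50 WT replicate 2, 24 and 25 of the 33 were above the mean of the rest of the group. The part of these 2 libraries in the counts was not tested.

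**Figure D5:**
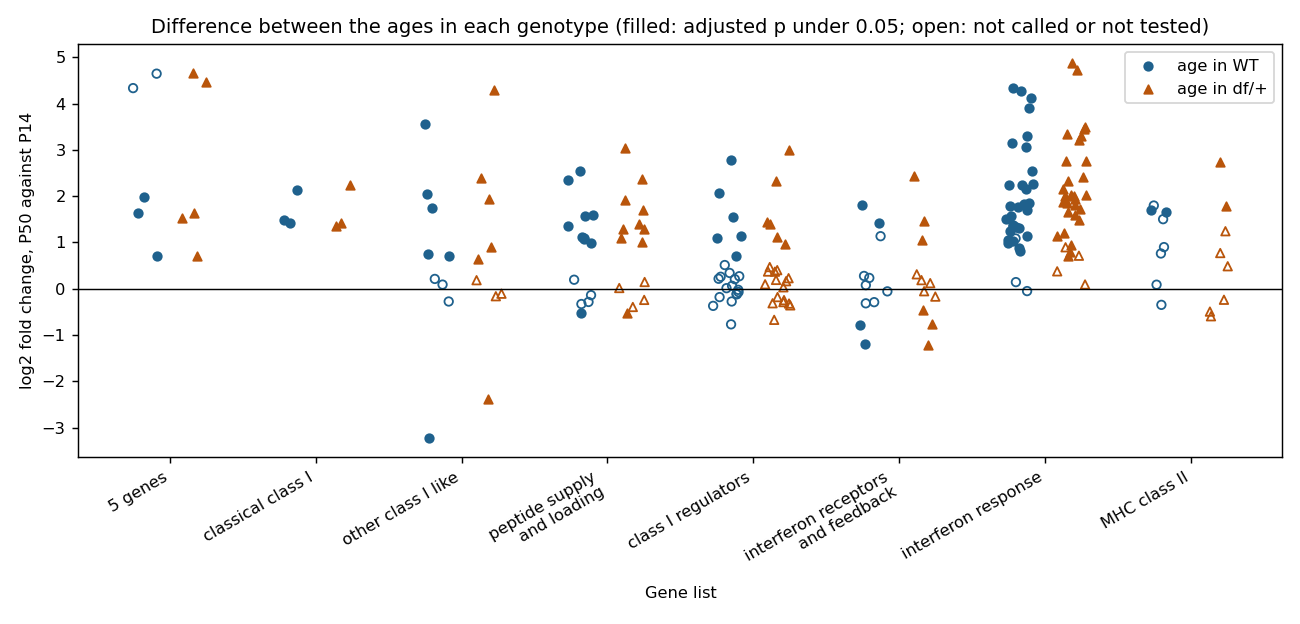
Log2 fold change of P50 against P14 for the 5 genes and each gene of the lists, in WT (circles) and df/+ (triangles), without Cd1d2, which was at 0 in all P50 WT libraries; filled symbols passed the test, and H2-Q6 and H2-Q7 are open in WT because they were not tested there. Of the interferon response genes 30 and 29 of 33 are filled, all above 0.

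Marker RNA of other cells in the preparations also differed between the ages. The 5 oligodendrocyte markers summed at P14 to 954 to 8973 CPM for WT and 1408 to 4683 CPM for df/+, and at P50 to 7461 to 21200 CPM for WT and 6631 to 16660 CPM for df/+, with none at 0. Of the 8 perivascular macrophage markers, Stab1 held most of the sum, at 512 to 667 CPM for WT and 499.9 to 597 CPM for df/+ at P14 and 209 to 266 CPM and 185 to 298 CPM at P50. The other 7 summed to 76.5, 15.7, 13.6 and 10.8 CPM in P14 WT replicates 1 to 4 and to 29.2, 22.1, 16.8 and 18.4 CPM at P50, and to 59.3 to 101 CPM at P14 and 21.6 to 30.4 CPM at P50 for df/+. The 5 smooth muscle markers were higher at P50, with 263 to 431 CPM for WT and 251 to 442 CPM for df/+, against 81.6 to 129 CPM and 96.9 to 152 CPM at P14. The 5 fibroblast markers were lower at P50, with 71.2 to 98.5 CPM for WT and 46.2 to 93.8 CPM for df/+, against 131 to 171 CPM and 162 to 206 CPM. The 12 microglia markers summed at P14 to 38.1 to 168 CPM for WT and 147 to 210 CPM for df/+, and at P50 to 53.9 to 94.5 CPM and 56.8 to 160 CPM. Their part in the age difference of the 5 genes was not tested.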

How the data were processed

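RNA-seq counts of 16 libraries in 4 groups were analysed. The deposited values are raw read counts, 1 row per Ensembl gene ID. The submitters' processing notes name STAR 2.5.3a, the build GRCm38.p5 and DESeq2. Which tool counted reads, on which strand and with which annotation was not given in the sources used here. Another deposited table, of normalized signal, held each count over a size factor of its library (within 0.00198) and served for scaling checks. Total counts were 8658792 to 18737781 per library. Of 52636 gene IDs, 52403 have a symbol.

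The members and gene lists were chosen with earlier results of these data known. Genes named are the 5 members and their sum, list genes called in a comparison, fixed class I genes with the 2 of smallest p per list, and the genes most like the members; the pathway lists are described by counts and medians, with no set test. Some genes that this rule names are not reported here. Genes were tested with the quasi-likelihood test of edgeR 4.0.16 in R 4.3.3, with TMM factors (0.917 to 1.05), filterByExpr (minimum count 10, equal to 0.647 CPM) and 1 mean per group on all 16 libraries (12 residual degrees of freedom, biological coefficient of variation 29.1%). Benjamini-Hochberg adjustment ran over 15368 genes, with a threshold of 0.05. The sum replaced its 2 genes in a second fit. Correlations used log2 CPM computed from the deposited counts with a prior count of 2. The steps were tested on simulated data. Coordinates come from GENCODE M21 (GRCm38) and promoters from RefSeq; overlapping windows were aligned with Biopython 1.88. Alternatives were DESeq2 1.42.0, its size factors, no filter, other sample sets, a replicate block and the omission of each library.

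Deviations of same-numbered WT libraries of both ages correlated weakly (r = 0.239, 0.142, 0.131 and 0.111). Same-numbered libraries of the other pairs of groups had r of -0.55 to 0.49. Column names number the P50 WT and the P14 df/+ libraries otherwise than their titles do, so a pairing by replicate number is not shown. The labels do not say what a number marks.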

Additional observations from a re-analysis of the deposited data

Results flagged for a closer look

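In groups of 4 libraries, 1 library lay far from the others for 7 sets of values, and chance flags about 1 in 20 sets. Of these, 6 are H2-Q6, H2-Q7 and their sum in WT, whose values chose the genes and of which the sum repeats the other two, so their number is not read against chance. Replicate 3 of P14 WT was far above its group for H2-Q6 (9.36 CPM), H2-Q7 (8.33 CPM) and their sum (17.7 CPM). Replicate 2 of P50 WT was far above its group for H2-Q6 (248 CPM), H2-Q7 (164 CPM) and their sum (412 CPM). The remaining one was H2-T23 in replicate 2 of P14 WT, which was below its group at 90.7 CPM while the other 3 libraries lay at 106 CPM.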

How the results depend on the processing

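Over the alternatives, the members called for age in WT were 2 to 3 of 3 and for genotype 0 of 3. For age in df/+, where H2-Q6 and H2-Q7 passed the filter largely through P50, 5 were called, and 2 to 5 when 1 library was left out. With all libraries, 25.1% of all tested genes were called for age in WT and 29.4% for age in df/+. For genotype the shares were 0.0651% at P14 and 0.0586% at P50. The df/+ count includes H2-Q6 and H2-Q7 and is not read against its share. Without replicate 2 of P50 df/+ and replicate 1 of P14 WT together, a setting chosen after seeing the data, H2-T22 was not called for age in WT (adjusted p = 0.0585) or in df/+ (0.0633). With the replicate block H2-T22 in WT kept its call (adjusted p = 0.0455), and so did every other member. Changes of sign touched values that were not called: H2-T23 for genotype at P14 was -0.11 to 0.0071 over single omissions, H2-T22 at P50 was -0.35 to 0.036, and the difference between ages was -0.72 to 0.19 for H2-Q4, -0.17 to 0.22 for H2-T22 (0.012 with the replicate block) and -0.25 to 0.020 for H2-T23. The cause was not tested. The mean of the sum over single omissions was 9.76 to 17.6 CPM for P50 df/+, 23.5 to 158 CPM for P50 WT, 0.438 to 0.676 CPM for P14 df/+ and 1.12 to 6.88 CPM for P14 WT. Of the 10 genes most like the sum, 4 were shared with Spearman correlation and 4 to 10 over single omissions, with 4 without replicate 3 of P14 WT and 6 without replicate 1 of P50 WT. Of the 50 most like it, 4 lay on chromosome 17 with Spearman correlation and 7 to 11 over omissions. All genes called for genotype at P14 numbered 10, 23 with DESeq2 and 3 with the block; at P50 they numbered 9, 31 and 7. With the P14 libraries alone H2-Q6 and H2-Q7 were too low to be tested. At P14 most libraries held too few reads of H2-Q6 and H2-Q7 for a difference between them to be detectable.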
